A study of Homo sapiens with 6 samples.

Results

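The genes described here encode transcription factors of families that assign cells to lineages during development: HOX, NKX, FOX, GATA, SOX, TBX, PAX, LHX, sine oculis homeobox, ZEB and KLF. They were measured by RNA sequencing in RKO, an established cell line from a poorly differentiated human colon carcinoma. Members were the protein-coding rows of the deposited table whose gene name begins with 1 of these family names followed by a number (for HOX, by a letter from A to D and a number). This gave 23 of the 2885 rows. The study has 3 libraries of RKO cells labelled wild type with a hairpin RNA that has no intended target (shNC) and 3 of RKO cells labelled KMT5A knockdown that carry a hairpin against KMT5A (shKMT5A), the enzyme that adds a single methyl group to lysine 20 of histone H4. The labels name 1 parental line and do not say whether the libraries came from separate cultures, clones or hairpins, so a p-value here reflects the spread among these 6 libraries alone, and that spread may be technical.

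Factors of these families bind DNA through conserved domains, such as the homeodomain of HOX, NKX and LHX proteins, the forkhead of FOX proteins, the HMG box of SOX proteins and the zinc fingers of GATA, ZEB and KLF proteins. HOX genes lie in clusters in which the order of the genes follows the order of the body regions they specify, and in the gut posterior HOX genes mark the hindgut. In a differentiated cell most of the genes of these families are silent, and the few that are on are characteristic of its origin.

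The deposited table holds genes that the authors had already selected. In the authors' deposited table no row had an adjusted p above 0.0499 or a fold change smaller than 1 on the log2 scale in either direction, so passing a test here is largely built in. Genes that it leaves out were not analysed here. Its values, called normalized counts below, are reads per gene after the authors scaled each library by 1 factor. The reads that fell on the rows of the table numbered 1363382 to 1369655 per shNC library and 1891460 to 1980866 per library labelled shKMT5A, and the total depth is unknown. KMT5A, the targeted gene, went against its label. Its normalized counts were 1298, 1245 and 1307 with shNC and rose to 4015, 3898 and 3297 in the libraries labelled shKMT5A (log2 fold change 1.54 ± 0.075, SE; limma, adjusted p = 1.00e-08). With TMM factors computed over the table its log2 fold change was 0.94, in the same direction. Such factors take most rows as unchanged, which does not hold for a table of rows selected as changed. For KMT5A alone a two-sided exact permutation test returned p = 0.1, below which 3 against 3 libraries cannot go. Higher and lower therefore refer to the labels (shKMT5A relative to shNC), and not to a lower KMT5A transcript.

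Of the 23 genes, 11 rose and 12 fell in the libraries labelled shKMT5A (limma on log2(normalized count + 1), adjusted p under 0.05 over the whole table). Of all rows, 57.4% were called higher and 42.6% lower, and of the 2036 protein-coding rows 1133 were higher and 903 lower. With 23 genes, a split of 11 and 12 is close to these shares and is not read as a trait of the members. The 6 libraries separated by group without overlap for all 23 genes, as they did for 57.2% of rows in the higher and 42.5% in the lower direction. In bulk RNA, fewer expressing cells and less RNA per cell cannot be told apart. The members fell into 3 kinds. NKX2-5, FOXF2 and TBX15 were without reads in all 3 shNC libraries and were gained from none. HOXC12 had no read in any library labelled shKMT5A and was lost. The other 19 had reads in both groups and shifted, 8 of them up and 11 down. Among all rows, 62 of 2036 protein-coding rows (3.05%) were gained from none and 97 (4.76%) were lost to none. The median log2 fold change was 2.51 over the 11 members that rose, against 1.70 over all 1133 protein-coding rows that were higher. It was -1.45 over the 12 that fell, against -1.52 over 903. Setting groups without reads to a floor of 3 reads over the group left these medians as they were. The members in the middle, KLF6 and the pair HOXC6 and SOX18, had reads in both groups, so this says little about robustness.

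**Figure D1:**
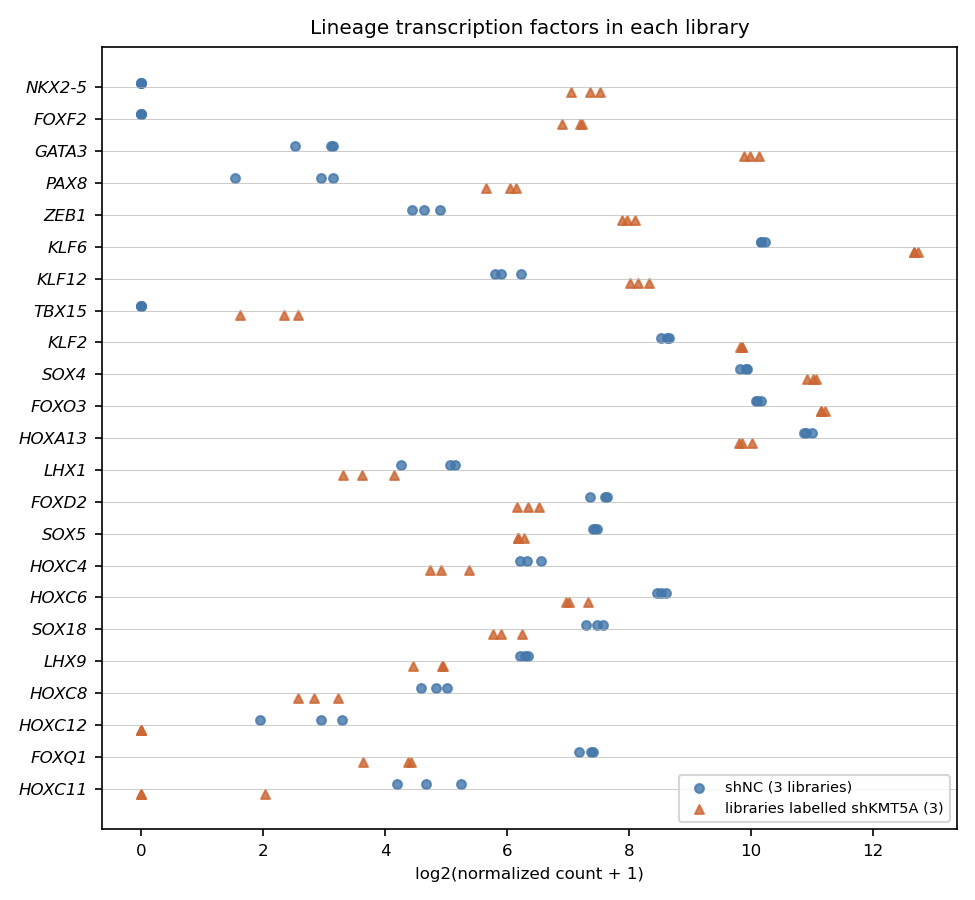
Normalized counts of the 23 lineage transcription factor genes in each library, on the scale log2(normalized count + 1), with shNC libraries as circles and libraries labelled shKMT5A as triangles. Circles of NKX2-5, FOXF2 and TBX15 and triangles of HOXC12 lie at 0, and no gene has overlapping groups.

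The members of each family, taken by name, were few, and their directions stand beside 1133 higher and 903 lower of all 2036 protein-coding rows. All 6 HOX genes (of 39 annotated protein-coding genes in GENCODE 29) and both LHX genes (of 8) fell. All 3 KLF genes (of 18) rose, as did the single members of the NKX, GATA, PAX, TBX and ZEB families. FOX genes split into 2 higher and 2 lower, and SOX genes into 1 higher and 2 lower. No gene of the sine oculis homeobox family was in the table. Over all families 23 of 184 annotated genes (12.5%) were in the table, against 10.2% of all protein-coding genes.

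**Figure D2:**
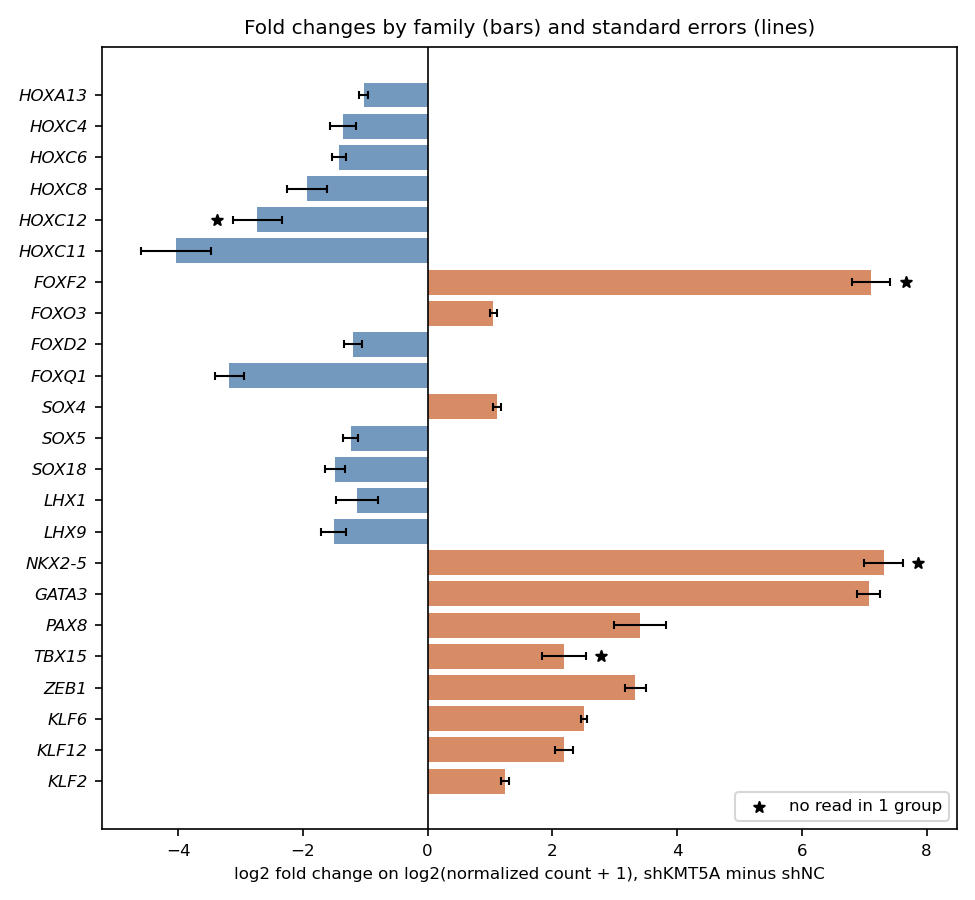
Log2 fold change of each gene (bars, shKMT5A minus shNC, on log2(normalized count + 1)) with its standard error (lines), ordered by family; a star marks genes with no read in 1 group, whose bar depends on the added count of 1. All 6 HOX bars point down and all 3 KLF bars point up.

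GATA3, NKX2-5 and FOXF2 showed the largest rises among the members. GATA3 directs T helper 2 and luminal breast differentiation. GATA3 (ENSG00000107485) lies on the plus strand of chromosome 10, from 8045378 to 8075203 in GRCh38. With shNC its normalized counts were 4.76, 7.70 and 7.86, and in the libraries labelled shKMT5A they were 1013, 1127 and 940. The shNC libraries thus held a handful of reads each, and the groups were far apart. The mean of 1027 ± 94.3 was 152-fold that of 6.77 ± 1.75 in shNC (SD, n = 3 in both groups; log2 fold change 7.07 ± 0.19, SE; limma, adjusted p = 1.12e-10), which ranked 15 from the top of the table.

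NKX2-5 encodes a homeodomain factor of the developing heart. Its gene (ENSG00000183072, chromosome 5, 173232109 to 173235357, minus strand) was without reads in shNC and had 182, 164 and 131 normalized counts in those labelled shKMT5A. The mean of 159 ± 25.8 was 165-fold that of a floor of 3 reads over the shNC group (log2 fold change 7.31 ± 0.30, SE; limma, adjusted p = 3.13e-09). That floor covers counting error of the group without reads and leaves out that of the other group. FOXF2 encodes a forkhead factor of the gut mesenchyme. Its gene (ENSG00000137273, chromosome 6, 1389576 to 1395603, plus strand) likewise had no read in shNC and 150, 146 and 118 normalized counts in the libraries labelled shKMT5A. Its mean was 143-fold that of the same floor (limma, adjusted p = 3.79e-09). By level NKX2-5 ranked 4 and FOXF2 ranked 6 among the 62 protein-coding rows gained from none. TBX15, a T-box factor of skeletal and mesenchymal development, ranked last of them. Its 2.09, 4.09 and 4.97 normalized counts were 2, 4 and 5 reads. Their mean was 3.85-fold that of the floor, and counting error of so few reads is not covered (limma, adjusted p = 1.16e-04; DESeq2 on the reads of 5 libraries, adjusted p = 0.0722). All 3 genes were thus at 0 in every shNC library, but only NKX2-5 and FOXF2 reached over 100 normalized counts in each library of the other group.

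ZEB1 and PAX8 rose from low but measurable levels. ZEB1 is a zinc finger repressor of epithelial genes that drives epithelial-mesenchymal transition. It had 23.8, 28.9 and 20.6 normalized counts in shNC and 249, 273 and 236 in the libraries labelled shKMT5A, a 10.4-fold difference (log2 fold change 3.33 ± 0.16, SE; limma, adjusted p = 1.09e-08). PAX8, a paired-box factor of thyroid and kidney, had 1.90, 6.74 and 7.86 normalized counts in shNC and 70.1, 65.5 and 49.7 in the other group. The lowest library labelled shKMT5A still exceeded the highest shNC library several times over (ratio of means 11.2; limma, adjusted p = 1.49e-05). The ratio of PAX8 was 8.46 without shNC replicate 1, the library with its lowest value.

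The KLF genes, zinc finger factors that bind GC-rich and CACCC elements, all rose. KLF6, an early-induced member, had 1196, 1141 and 1149 normalized counts in shNC and 6503, 6843 and 6506 in the libraries labelled shKMT5A. Its libraries lay close together (coefficient of variation 2.57% and 2.96%), and the 5.70-fold difference (log2 fold change 2.51 ± 0.050, SE) had the lowest adjusted p of the members (limma, adjusted p = 1.37e-11). KLF12, known as a repressor of the AP-2 alpha gene, went from 74.3, 54.9 and 59.0 to 283, 320 and 259, a 4.58-fold difference (limma, adjusted p = 1.12e-07). KLF2, which maintains quiescence of endothelial cells and T cells, had 404, 392 and 369 normalized counts in shNC and 927, 907 and 920 in the other libraries (2.37-fold; limma, adjusted p = 2.69e-08). The row of its processed pseudogene KLF2P1 on chromosome 2 had a similar level and direction, with means of 340 ± 36.3 and 930 ± 84.5 normalized counts. Reads of KLF2 and of this copy may have been assigned to either, so both values are uncertain.

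SOX4 and FOXO3 were abundant in both groups and rose by about the smallest fold that the authors' selection allows. SOX4, an HMG-box factor of progenitor cells, had 963, 973 and 904 normalized counts in shNC and 2080, 2149 and 1943 in the libraries labelled shKMT5A (2.17-fold; limma, adjusted p = 2.78e-08). FOXO3, a forkhead factor held in the cytoplasm by AKT signalling, went from 1100, 1087 and 1148 to 2277, 2380 and 2263 (2.08-fold; limma, adjusted p = 1.76e-08). Their log2 fold changes were 1.12 and 1.05 with the authors' scaling and 0.52 and 0.45 with TMM factors computed over the table, and both kept their direction and their call. That of KLF2 went from 1.24 to 0.64.

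Promoter sequences are shown for 6 members: GATA3, ZEB1 and KLF6, which rose, HOXA13, which fell, and the neighbours FOXF2 and FOXQ1, which moved in opposite directions. They come from RefSeq on GRCh38.p14, in which 15 of the 23 genes had an entry. Each holds 250 bases before and 50 bases after an annotated start, on the strand of the gene, taken at the start nearest to that in the deposited file. That start was 342 bases away for FOXQ1 and at most 78 bases away for the other 5 genes shown. Among the windows not shown it was 562 bases away for LHX9, 983 for SOX4, 2027 for FOXD2 and 31832 for KLF12, so these need not be the promoters of the measured gene models. Capitals mark the GC box GGGCGG or CCGCCC, to which KLF and SP factors can bind, and the E-box CAGGTG or CACCTG, the sequence bound by ZEB1.
FOXF2, chr6:1389326-1389625, plus strand: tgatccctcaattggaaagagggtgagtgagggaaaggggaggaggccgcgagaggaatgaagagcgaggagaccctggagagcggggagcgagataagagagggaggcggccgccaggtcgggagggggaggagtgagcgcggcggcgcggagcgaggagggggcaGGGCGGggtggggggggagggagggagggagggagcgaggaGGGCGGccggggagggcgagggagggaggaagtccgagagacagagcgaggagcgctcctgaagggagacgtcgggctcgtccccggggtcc
FOXQ1, chr6:1311848-1312147, plus strand: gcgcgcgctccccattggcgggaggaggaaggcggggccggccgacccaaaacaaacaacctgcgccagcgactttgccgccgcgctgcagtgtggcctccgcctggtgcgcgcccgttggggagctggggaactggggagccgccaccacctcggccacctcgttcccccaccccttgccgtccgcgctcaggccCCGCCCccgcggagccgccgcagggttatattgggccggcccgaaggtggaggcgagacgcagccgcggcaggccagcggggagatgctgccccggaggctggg
GATA3, chr10:8045083-8045382, plus strand: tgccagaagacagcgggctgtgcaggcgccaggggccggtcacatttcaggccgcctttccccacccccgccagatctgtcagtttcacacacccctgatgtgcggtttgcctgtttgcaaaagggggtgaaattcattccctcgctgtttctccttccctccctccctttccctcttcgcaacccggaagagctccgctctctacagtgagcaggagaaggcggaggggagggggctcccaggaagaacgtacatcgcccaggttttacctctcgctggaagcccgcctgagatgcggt
ZEB1, chr10:31318167-31318466, plus strand: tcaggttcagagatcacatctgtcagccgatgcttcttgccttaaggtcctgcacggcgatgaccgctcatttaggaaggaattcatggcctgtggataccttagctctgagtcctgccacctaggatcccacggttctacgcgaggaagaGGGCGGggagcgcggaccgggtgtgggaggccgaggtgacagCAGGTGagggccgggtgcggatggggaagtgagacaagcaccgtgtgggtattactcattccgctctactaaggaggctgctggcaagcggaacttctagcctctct
KLF6, chr10:3785160-3785459, minus strand: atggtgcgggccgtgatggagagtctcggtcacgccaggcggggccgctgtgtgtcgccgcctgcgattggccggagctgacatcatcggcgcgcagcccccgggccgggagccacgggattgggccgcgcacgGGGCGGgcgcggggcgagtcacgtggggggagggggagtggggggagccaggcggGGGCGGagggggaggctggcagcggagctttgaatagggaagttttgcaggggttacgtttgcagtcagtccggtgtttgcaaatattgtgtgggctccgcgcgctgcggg
HOXA13, chr7:27200042-27200341, minus strand: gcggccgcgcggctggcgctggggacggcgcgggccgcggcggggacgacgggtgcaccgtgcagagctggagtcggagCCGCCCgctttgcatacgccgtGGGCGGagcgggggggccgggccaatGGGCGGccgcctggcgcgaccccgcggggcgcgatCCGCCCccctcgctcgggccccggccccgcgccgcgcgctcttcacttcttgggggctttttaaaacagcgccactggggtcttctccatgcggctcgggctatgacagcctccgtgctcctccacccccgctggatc

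Both motifs were searched on both strands in windows of 300 bases. A GC box was found in 9 of the 15 member windows, in 5 of 9 genes that rose and 4 of 6 that fell, and in 45.0% of 35116 RefSeq windows. The E-box was found in 2 windows, that of ZEB1 and the distant one of KLF12, and in 20.6% of all windows. GC boxes overlapped each other in the KLF2 window. The window of ZEB1 holds 1 E-box, starting 57 bases before the annotated start, and lies within the annotated gene ZEB1-AS1 on the other strand. The windows of FOXF2 and KLF6 hold 2 GC boxes each, that of HOXA13 holds 4 and that of FOXQ1 holds 1. That of GATA3 holds neither motif. The median number of CpG dinucleotides was 26 over the member windows and 14 over all windows. A match describes letters and no binding, and a window without a match says nothing of other sequence.

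FOXF2 and FOXQ1 lie 74.8 kb apart on chromosome 6, with no other protein-coding gene annotated between them, and moved in opposite directions. FOXQ1, a forkhead factor of epithelia (ENSG00000164379, chromosome 6, 1312440 to 1314748, plus strand), had 145, 166 and 170 normalized counts in shNC and 11.5, 20.5 and 19.9 in the libraries labelled shKMT5A, a 9.26-fold fall (log2 fold change -3.18 ± 0.23, SE; limma, adjusted p = 2.09e-07). FOXQ1 was thus on and FOXF2 off in all 3 shNC libraries, and FOXF2 was higher than FOXQ1 in all 3 libraries of the other group, also per kilobase of gene model (56.3 ± 7.06 and 7.49 ± 2.17 normalized counts per kb). The antisense row AL034346.1 between them had 1 read over the shNC libraries and 8.38, 10.2 and 3.97 normalized counts in the others. Its ratio from reads was 23.3, with an exact 95% counting interval of 3.76 to 960.

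FOXD2, a forkhead factor of mesenchyme, fell from 163, 194 and 199 to 80.6, 91.1 and 70.5 normalized counts (2.29-fold; limma, adjusted p = 1.28e-05). The non-coding FOXD2-AS1, which starts 1376 bases from it on the other strand, went from 213 ± 11.7 to 96.2 ± 9.68 (limma, adjusted p = 4.72e-06).

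The 6 HOX genes in the table, of 39 annotated, all fell in the libraries labelled shKMT5A. HOXA13, a factor of the hindgut and distal limb (ENSG00000106031, chromosome 7, 27193503 to 27200106, minus strand), had 2050, 1904 and 1871 normalized counts in shNC and 897, 1037 and 929 in the libraries labelled shKMT5A. The groups were well apart, with a 2.03-fold fall (log2 fold change -1.03 ± 0.071, SE; limma, adjusted p = 1.41e-07). The other 5 lie in the HOXC cluster on chromosome 12, where 5 of the 9 annotated protein-coding HOXC genes were in the table. HOXC genes help to set position along the trunk and hind body, with the genes of the highest numbers acting most posteriorly.

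Within the cluster the largest ratios were at its HOXC12 and HOXC11 side. HOXC12 (53954834 to 53958956) had 2.86, 6.74 and 8.85 normalized counts in shNC and no read in the libraries labelled shKMT5A. Its shNC mean was 6.02-fold that of a floor of 3 reads over the other group, without counting error of the shNC reads (limma, adjusted p = 5.46e-05). HOXC11 (53973126 to 53977643) had 37.1, 17.3 and 24.6 in shNC and 3 reads in 1 library labelled shKMT5A, replicate 2, and none in the other two. Its ratio from reads was 25.9, with an exact 95% counting interval of 8.54 to 128, and the ratio of means was 17.2 without shKMT5A replicate 1 or 3, while no read was left in that group without replicate 2 (limma with all libraries, adjusted p = 4.13e-05).

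The 3 HOXC genes on the other side kept reads in every library. HOXC8 (54009106 to 54012362) went from 31.4, 23.1 and 27.5 to 8.38, 6.14 and 4.97 normalized counts, a 4.21-fold fall (limma, adjusted p = 1.38e-04). HOXC6 had 389, 368 and 352 in shNC and 125, 160 and 129 in the others, a 2.68-fold fall (limma, adjusted p = 5.40e-07). HOXC4 had 93.3, 73.2 and 79.6 in shNC and 29.3, 25.6 and 40.7 in the others, a 2.57-fold fall (limma, adjusted p = 1.09e-04). HOXC6 and HOXC4 share 484 exonic bases on the same strand in GENCODE 29, 13.7% and 17.8% of their gene models, so their values are not fully separate. No difference between the ratios of the HOXC genes was tested. The order of the genes by ratio rests on low counts for HOXC12, HOXC11 and HOXC8.

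HOTAIR, a long non-coding RNA made from the opposite strand of the cluster and overlapping the span of HOXC11, fell with them. It had 99.0, 86.6 and 93.4 normalized counts in shNC and 4.19, 3.07 and 4.97 in the libraries labelled shKMT5A, a 22.8-fold fall (log2 fold change -4.23; limma, adjusted p = 6.24e-08). The non-coding AC012531.1, inside the spans of HOXC6 and HOXC4 on their strand, went from 130 ± 3.84 to 57.2 ± 12.6. HOTAIR and HOXC11 share no exonic base in the annotation.

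**Figure D3:**
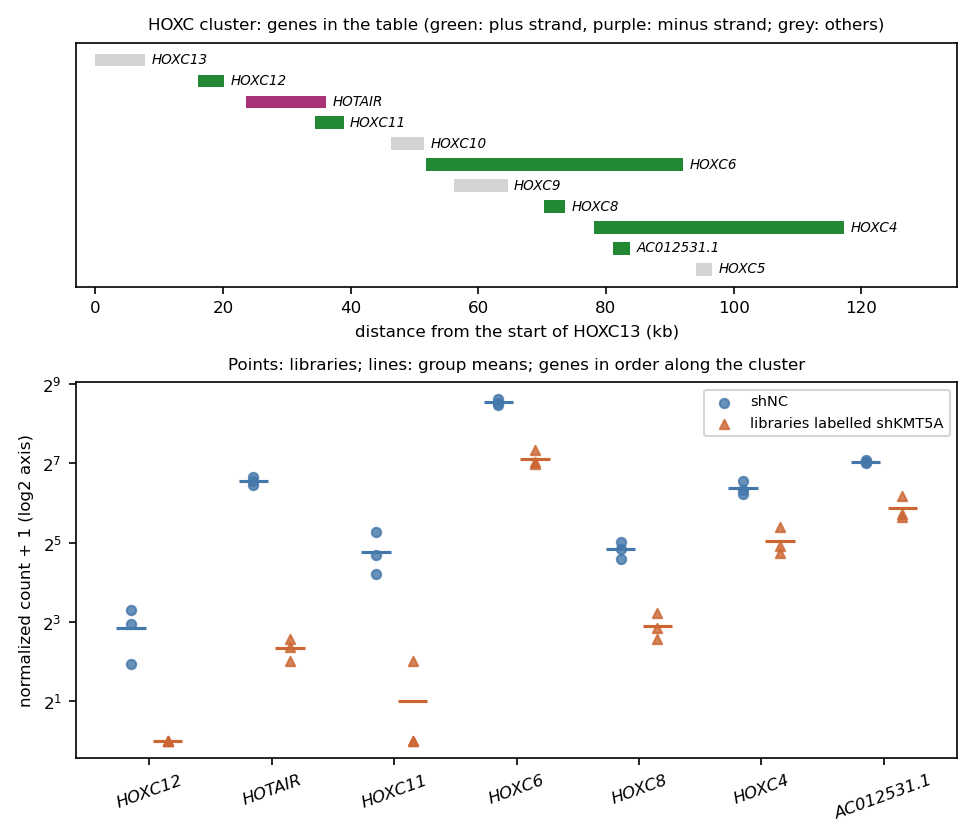
Top, genes of the HOXC cluster drawn by distance in kb from the start of HOXC13, in green (plus strand) or purple (minus strand) where the gene is in the table and in grey otherwise. Bottom, normalized count + 1 on a log2 axis for each library (points) with the group mean (lines); all 7 rows are lower in the libraries labelled shKMT5A.

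The remaining factors that fell were SOX18, SOX5, LHX9 and LHX1. SOX18, an HMG-box factor of endothelial and lymphatic development, had 177, 157 and 189 normalized counts in shNC and 53.4, 74.7 and 58.6 in the libraries labelled shKMT5A (2.80-fold; limma, adjusted p = 4.88e-06). SOX5, a SOX factor of cartilage and neural crest, went from 169, 172 and 178 to 71.2, 76.8 and 71.5 (2.37-fold; limma, adjusted p = 2.26e-06). LHX9, a LIM-homeodomain factor needed to form the gonads, went from 77.1, 73.2 and 80.6 to 20.9, 29.7 and 29.8 (2.87-fold; limma, adjusted p = 3.15e-05). LHX1, a LIM-homeodomain factor of the kidney and head organizer, showed the least separated groups among the members. Its 32.4, 18.3 and 34.4 normalized counts in shNC lay just above 16.8, 11.3 and 8.94 in the others, and the gap between the nearest libraries was 18.3 against 16.8 (limma, adjusted p = 0.00797; DESeq2 on the reads of 5 libraries, adjusted p = 0.0570).

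Compared per kilobase of gene model, the order of the members changed between the groups. In the shNC libraries HOXA13 was highest, with 382 ± 18.7 normalized counts per kb. KLF2 (192 ± 8.86) and KLF6 (189 ± 4.86) followed and did not differ beyond their spread, and SOX4 (162 ± 6.34) and FOXO3 (144 ± 4.18) came next. In the libraries labelled shKMT5A KLF6 was highest, with 1078 ± 31.9 per kb, followed by KLF2 (455 ± 4.95) and SOX4 (352 ± 17.9). GATA3 (299 ± 27.4) and FOXO3 (299 ± 8.26) did not differ beyond their spread, and HOXA13 (188 ± 14.4) ranked 6. GATA3 ranked 18 of 23 in shNC and 4 in the other group.

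**Figure D4:**
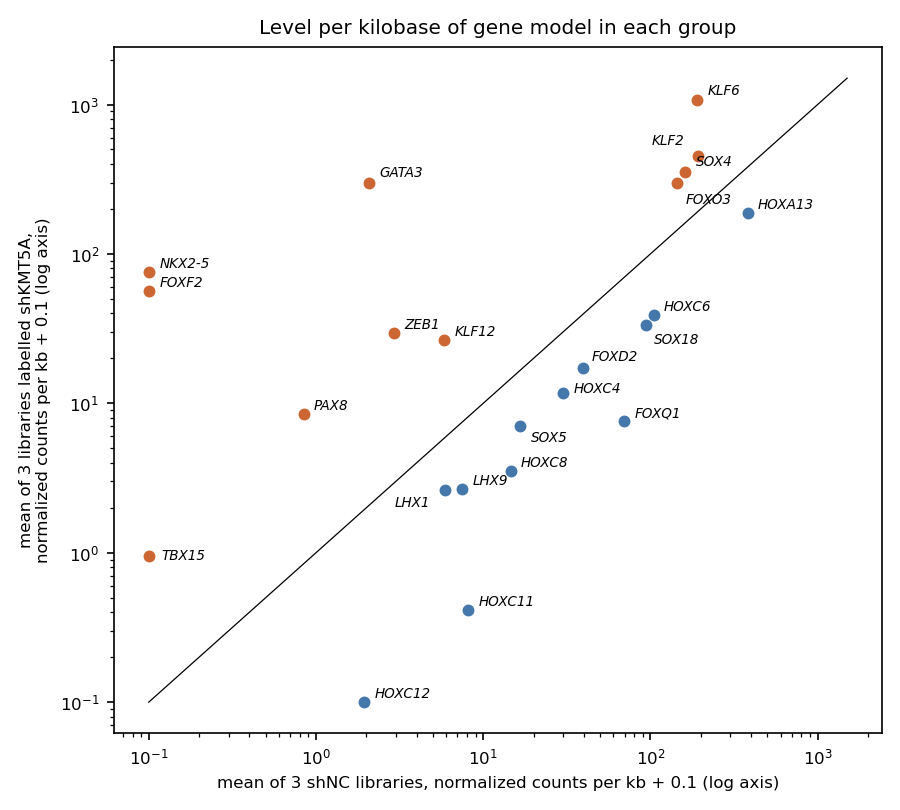
Mean normalized counts per kb of gene model, plus 0.1, in the shNC libraries (x axis) and in the libraries labelled shKMT5A (y axis), both on log axes, with genes that rose in orange and genes that fell in blue; the line marks equal levels. GATA3 moves from 1.97 to 299 per kb, and NKX2-5, FOXF2 and TBX15 stand at the left edge with no read in shNC.

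Non-coding rows near the members moved with them. GATA3-AS1, which lies within the span of GATA3 on the other strand, had no read in shNC and 18.8, 23.5 and 28.8 normalized counts in the libraries labelled shKMT5A. Its mean was 24.6-fold that of a floor of 3 reads over the shNC group (limma, adjusted p = 1.88e-07). ZEB1-AS1 went from 36.7 ± 1.43 to 207 ± 11.2, a 5.63-fold rise beside the 10.4-fold rise of ZEB1. PAX8-AS1 went from 9.97 ± 1.41 to 65.4 ± 4.36, a 6.56-fold rise beside the 11.2-fold rise of PAX8. AC004080.2, which lies 55 bases from HOXA13 on the same strand, fell from 165 ± 16.0 to 73.4 ± 7.87. The 8 distinct non-coding rows within 50 kb of a member form 15 pairs, since HOTAIR and AC012531.1 are each paired with several HOXC genes. All 15 had the same direction, as did 95.3% of all 570 pairs of coding and non-coding rows within that distance in the table. The share of the members is therefore close to the background. Coding rows within 50 kb that are not members also moved as the member did. TAF3, 28751 bases from GATA3, went from 418 ± 13.7 to 1001 ± 36.1 normalized counts. PSD4, 6601 bases from PAX8, went from 315 ± 8.59 to 931 ± 32.9. OPRL1, 30532 bases from SOX18, fell from 91.3 ± 14.4 to 45.3 ± 3.10. KLF6, GATA3 and ZEB1 all lie on chromosome 10. Whether members moved with their surroundings was not tested. ZEB1 and ZEB1-AS1 share 366 exonic bases and PAX8 and PAX8-AS1 share 685. The shared bases are 4.23% of the gene model of ZEB1 and 9.26% of that of PAX8. The sources used here do not say whether counting used the strand, so reads within the shared bases cannot be told apart.

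**Figure D5:**
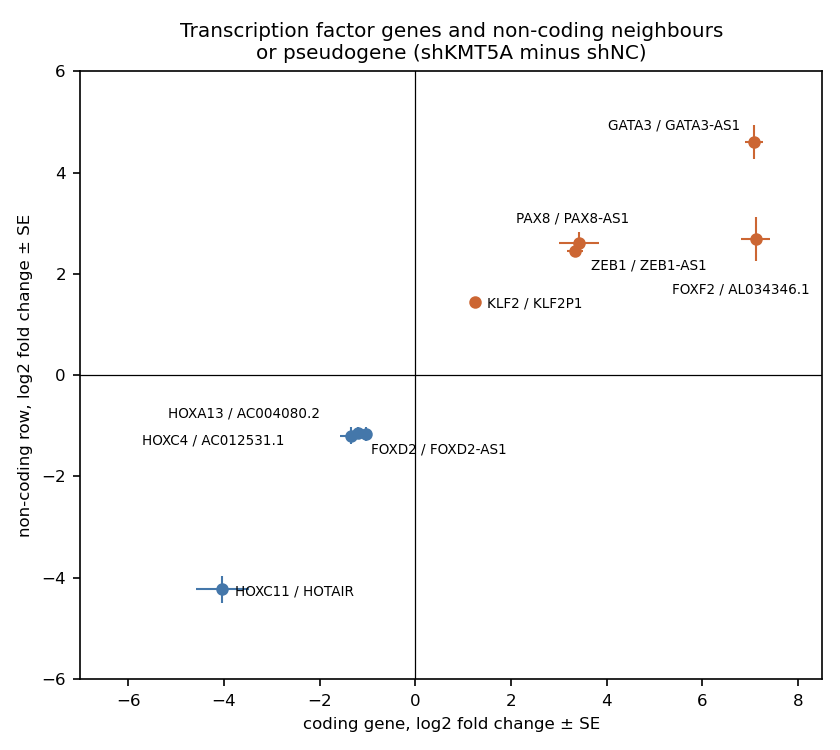
Log2 fold change (± SE) of a transcription factor gene (x axis) and of a non-coding row near it, or in the case of KLF2P1 its pseudogene (y axis), for 9 pairs. All 9 lie in the quadrants of equal direction; HOXC11 with HOTAIR is lowest and GATA3 with GATA3-AS1 highest.

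Other lineage transcription factors, whose names do not match those of the families and which may still be related to them, moved in both directions. Of 77 further homeobox genes 9 were in the table, beside 10.2% of all protein-coding genes. Of the 9, 4 were higher and 5 lower, beside 57.4% and 42.6% of all rows. PRRX1, a factor of limb and craniofacial mesenchyme, went from 72.9 ± 13.4 to 537 ± 39.4 normalized counts, and TLX1, a factor of spleen development, from no read to 5.13 ± 2.09. ONECUT1, a factor of liver and pancreas, went from 24.8 ± 3.27 to 5.48 ± 3.71 and EMX1, a factor of the cerebral cortex, from 93.7 ± 8.25 to 27.3 ± 13.7.

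Of 108 genes of the basic helix-loop-helix, SNAIL, RUNX, ETS and related groups 22 were in the table, beside 10.2% of all protein-coding genes. Of the 22, 14 were higher and 8 lower, beside 57.4% and 42.6% of all rows. MEF2C, a factor of muscle and blood vessel lineages, went from 79.8 ± 10.2 to 656 ± 33.1 and HEY2, a Notch-responsive repressor, from 17.4 ± 1.95 to 65.4 ± 4.53. EBF2, a factor of brown fat and bone stroma, had 22.2 ± 3.80 in shNC and 2 reads in the other group, a ratio from reads of 32.6 with an exact 95% counting interval of 8.70 to 275. SP9, a forebrain factor, had 1 read there and a ratio of 20.8 (3.36 to 859). Of 48 Polycomb and Trithorax genes 0 were in the table, beside 10.2% of all protein-coding genes, and those 48 were not analysed here.

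A list of 36 genes of the epithelial-mesenchymal axis on which ZEB1 acts holds both epithelial and mesenchymal genes, so its count gives no direction along that axis. Of the 36, 11 were in the table, beside 10.2% of all protein-coding genes. Of the 11, 5 were higher and 6 lower, beside 57.4% and 42.6% of all rows. Their median log2 fold change of -1.0 follows from that split, as the table leaves out changes smaller than 1. CDH2, which encodes N-cadherin, had no read in shNC and 5.78 ± 0.48 normalized counts in the libraries labelled shKMT5A, and TGFB2 went from 408 ± 47.2 to 2422 ± 32.2. ITGB6, an epithelial integrin chain, went from 63.3 ± 15 to 3.43 ± 2.66 and the epithelial keratin KRT8 from 100213 ± 4818 to 26247 ± 395. The other genes that fell were KRT18, KRT19 and LLGL2, of epithelial cells, and FN1, which encodes the matrix protein fibronectin. The other genes that rose were the collagen gene COL3A1 and the epithelial genes DSP and ESRP1, DSP from 1384 ± 79.5 to 5735 ± 178.

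Markers of cell types were checked beside the members. For the counts below, the table held 10.2% of all protein-coding genes, and 57.4% of all rows were called higher and 42.6% lower. The table held 6 of 20 markers of colon epithelium (3 higher, 3 lower), and their summed level was 144335 to 157172 normalized counts per shNC library and 45798 to 47267 per library labelled shKMT5A, nearly all of it from KRT8, KRT18 and KRT19. MUC2 and CDH17 were the highest of this list by fold change, and CDH17 was at 0 in all shNC libraries. Of 18 leukocyte markers 4 were in the table (1 higher, 3 lower). Their sum was 489 to 548 in shNC and 114 to 139 in the others, most of it CORO1A, and CD79A and CD8A stood at 10.9 ± 0.96 and 0.64 ± 0.55 in shNC and at 1.37 ± 1.56 and 13.2 ± 3.53 in the others. It held 6 of 18 markers of fibroblasts and endothelium (3 higher, 3 lower), with sums of 172 to 181 and 95.3 to 121. CDH5 was at 0 in all shNC libraries and DCN in all libraries labelled shKMT5A, LUM went from 111 ± 13.0 to 0.34 ± 0.59, and COL3A1 from 14.2 ± 2.86 to 65.7 ± 6.24. Of 16 neural markers MAP2 was in the table, with 190 ± 16.2 and 454 ± 11.1. The part of these markers in the changes of the transcription factors was not tested.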

How the data were processed

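RNA of 6 RKO libraries was sequenced. Tools named in the submitters' processing notes are DESeq2 1.20.0, featureCounts 1.5.0-p3, HISAT2 2.0.5, fastp and CASAVA 1.8, with the build GRCh38. The signal values deposited by the authors are reads per gene scaled by 1 factor per library: 100% of values were whole multiples (within 0.001) of the value of 1 read. Read numbers and counting intervals use all 6 libraries. For shKMT5A replicate 3 that step was 0.994, too close to 1 to be told from unscaled counts by the unit check, and edgeR and DESeq2 were run on the other 5 libraries. Gene lengths, log2 fold changes and p-values in the deposited table are the authors' own.

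All 2885 rows (minimum mean 1) were tested with limma 3.58.1 (trend, robust; R 4.3.3) on log2(value + 1) over all 6 libraries, p-values adjusted by Benjamini and Hochberg over all rows, and calls made under 0.05. The pseudocount understates changes of low genes. Folds against a group without reads use a floor of 3 reads over the group and leave out counting error of the other group. Counting intervals are exact at 95% (scipy 1.17.1) and cover counting error only. The fit was tested on simulated data. Alternatives were other pseudocounts, filters and scalings, leaving out each library, a replicate block, edgeR 4.0.16 and DESeq2 1.42.0 on recovered reads. Replicates differed by 2.16 to 8.91 times counting variance. Members and lists were chosen with earlier results of these data known. Every member is named; of other lists, the 2 highest and 2 lowest called genes by log2 fold change, and further genes as examples chosen after their values were seen. The result of 1 further list is not reported here.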

Additional observations from a re-analysis of the deposited data

How the results depend on the processing

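The members kept their counts of 11 higher and 12 lower under all alternatives run except 2. With genes of a mean of at least 10 tested, 21 members were left, 10 higher and 11 lower, as TBX15 and HOXC12 were not tested. With DESeq2 on the reads of 5 libraries TBX15 and LHX1 missed the threshold (adjusted p = 0.0722 and 0.0570). That run changed the method and also left out shKMT5A replicate 3. Limma without that replicate gave adjusted p = 0.00135 and 0.0303. The authors' deposited adjusted p-values, with DESeq2 named in the submitters' notes, were 0.0404 and 0.0361. Over the other alternatives the adjusted p of TBX15 ran from 1.40e-05 (limma, pseudocount of 0.1) to 0.0203 (edgeR with TMM factors). That of LHX1 ran from 2.79e-05 (edgeR with TMM factors) to 0.0422 (limma without shNC replicate 3). edgeR on the same reads called 1653 rows higher and 1228 lower. No member changed sign. The authors' selection of the table builds in much of this. The fit with the replicate block gave 11 and 12 members and 1655 and 1228 rows, as without it. Same-numbered libraries had correlations of their deviations of -0.035, -0.038 and 0.001, and no library correlated best with its own number. Such correlations cannot show whether same-numbered libraries shared a culture or preparation, which the labels do not say.

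With each library left out in turn, higher rows numbered 1645 to 1653 and lower rows 1225 to 1228, and the log2 fold change of KMT5A was 1.48 to 1.62. Other scalings moved the median over all rows, on the log2 scale, by -0.23 with equal library medians, by -0.58 with TMM factors and by -0.62 for edgeR with TMM factors, the last chosen after seeing the data. They gave 11 and 12 members as well. KMT5A, at 1.54 with the authors' scaling, was at 0.94 with TMM factors and at 0.99 for edgeR with them. Low reads limit HOXC11, HOXC12, TBX15 and PAX8.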

Other observations

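The order of the 3 libraries labelled shKMT5A was not the same for all members. Replicate 3 held the lowest value of that group for 8 of the 11 genes that rose, against 37.7% of the 1656 rows of the table with a positive fold change. KLF6 and TBX15 were lowest in replicate 1 and KLF2 in replicate 2. Of the 11 genes that fell and kept a read in that group, 7 were lowest in replicate 1 (32.5% of 1049 rows), with the tie of HOXC11 at 0 counted to replicate 1. Replicate 2 was highest for 6 of the 11 genes that rose and for 7 of the 11 that fell. Over the table it was also the library most often highest, for 592 of 1656 and 445 of 1049 rows. KMT5A had 4015, 3898 and 3297 normalized counts in replicates 1, 2 and 3. Covariation between the libraries was not tested.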
